A study of Saccharomyces cerevisiae with 119 samples.

Results

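The mRNA levels of 10 genes that encode enzymes of the middle and lower part of glycolysis were followed across natural strains of Saccharomyces cerevisiae, across ethanol and salt stress, and across deletion mutants of stress transcription factors. The genes were chosen by systematic name and not by a filter on measured values, though earlier results of these data were known. They are 10 of the 6685 genes in the table. All 10 were counted in every one of the 119 libraries and all 10 passed the filter on low values, a mean of at least 1 CPM in an experiment, where CPM is the usual scaling of a count by the size of its library, so no member was lost.

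Glycolysis splits glucose into pyruvate and yields ATP and NADH on the way, and in budding yeast growing on glucose its enzymes are among the most abundant proteins of the cell. Transcription of the genes depends on the activators Gcr1 and Gcr2 together with Rap1, and several steps are encoded by duplicated genes whose products do the same reaction. The TDH family for glyceraldehyde 3-phosphate dehydrogenase and the ENO family for enolase are textbook cases in which 1 paralog carries most of the expression on glucose.

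In pathway order and on the R64 reference of strain S288c, the members were PGI1 (YBR196C, chromosome II, 612236 to 613900, minus strand), which encodes phosphoglucose isomerase, FBA1 (YKL060C, chromosome XI, 326408 to 327487, minus strand), the aldolase that splits fructose bisphosphate, and TPI1 (YDR050C, chromosome IV, 555726 to 556472, minus strand), triose phosphate isomerase. The dehydrogenase paralogs were TDH1 (YJL052W, chromosome X, 338271 to 339269, plus strand), TDH2 (YJR009C, chromosome X, 453683 to 454681, minus strand) and TDH3 (YGR192C, chromosome VII, 882812 to 883810, minus strand). Phosphoglycerate kinase, which makes the first ATP of the lower pathway, is PGK1 (YCR012W, chromosome III, 137746 to 138996, plus strand). The enolase paralogs were ENO1 (YGR254W, chromosome VII, 1000927 to 1002240, plus strand) and ENO2 (YHR174W, chromosome VIII, 451327 to 452640, plus strand), and the last member was CDC19 (YAL038W, chromosome I, 71786 to 73288, plus strand), the main pyruvate kinase. Every member is annotated with 1 coding exon and no intron.

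The study grew 8 strains in 3 replicate cultures, sampled each culture unstressed, and then split it into 5% (v/v) ethanol for 30 min and 0.4 M NaCl for 45 min. For each stress, culture was added to an equal volume of medium that held the stressor, after the unstressed sample had been taken. Dilution into fresh medium and the time that passed are thus part of every stress contrast and cannot be told apart from the stressor. Here 71 libraries are analysed, with 2 for strain Y10 in ethanol. The strains were the laboratory strain S288c (the label names DBY8268, a prototrophic diploid carrying the URA3 allele of M22), YJM1129 from a distillery fermentation, M1 and M22 from vineyards, Y10 from coconut, YPS163 and YPS606 from oak, and the clinical isolate YJM308. The wild strains were homozygous diploid derivatives. A separate experiment of 48 libraries compared wild-type YPS606 with homozygous deletions made in the same oak strain, msn2::KanMX msn4::HygMX, skn7::KanMX and yap1::KanMX, each unstressed, in ethanol and in salt with 4 replicates. Msn2 and Msn4 are general stress activators, Skn7 and Yap1 activators of the oxidative stress response, and each mutant was studied in this 1 background.

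Total expected counts per library ranged from 7726938 to 18253411 with a median of 12691127. The correlation of log2 CPM between replicate libraries of a group was at least 0.9511 in the strain experiment and 0.9747 in the mutant experiment, and no pair was as close as sampling noise alone would make it. The deleted genes were low where they should be, with log2 differences from unstressed wild type of -8.72 for MSN2 and -8.12 for MSN4 in the msn2 msn4 strain, -9.44 for SKN7 in skn7 and -8.50 for YAP1 in yap1. Replicate 3 of YPS606 in ethanol stood apart, with the lowest scaling factor of the experiment, 0.513, and member levels well above those of its group mates, so several results that rest on it are also given without it. The library Y10 in salt, replicate 1, carries a title that names ethanol while its description and treatment label name salt; it was kept as salt and was also left out as an alternative. Cultures of a replicate number were handled and sequenced together, the p-values measure the spread between these cultures, and in bulk RNA more cells of a kind and more RNA per cell cannot be told apart.

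The paralogs are close in sequence, and the window of 50 bases in which each family differs most, the length of a sequencing read, shows what the counting had to work with. The sequences were read from the R64 genome and run 5′ to 3′ along the coding strand, with positions at which the family members differ in capitals. For TDH they span coding positions 62 to 111 and hold 17 variable positions.
TDH1 (chrX:338332-338381, plus strand): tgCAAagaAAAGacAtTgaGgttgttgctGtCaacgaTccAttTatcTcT
TDH2 (chrX:454571-454620, minus strand): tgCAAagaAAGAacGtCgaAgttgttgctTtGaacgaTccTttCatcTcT
TDH3 (chrVII:883700-883749, minus strand): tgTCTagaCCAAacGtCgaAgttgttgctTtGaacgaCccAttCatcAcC
For the enolases the window spans coding positions 197 to 246 and holds 10 variable positions.
ENO1 (chrVII:1001123-1001172, plus strand): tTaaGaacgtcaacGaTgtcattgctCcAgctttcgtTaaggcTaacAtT
ENO2 (chrVIII:451523-451572, plus strand): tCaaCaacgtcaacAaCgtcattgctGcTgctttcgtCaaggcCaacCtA

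Over the whole coding sequence TDH2 and TDH3 were 95.8% identical, TDH1 and TDH2 90.2%, TDH1 and TDH3 88.9%, and ENO1 and ENO2 94.8%. Of all windows of 50 bases, 84.3% were unique to the gene for TDH1, 68.7% for TDH2, 75.6% for TDH3 and 76.4% for each enolase in R64. Reads from the remaining windows were divided among paralogs by RSEM's estimate, so the split within a family is less certain than the family sum, and the effect of each strain's own reference sequence on that split was not tested. PGK1 also overlaps a dubious reading frame on the other strand, YCR013C, which held at most 0.361% of the PGK1 count in any library.

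Promoter sequence is shown for the paralogs because their responses differ. The stretches run from 250 to 101 bases before the start codon, with any match to the Gcr1 core CTTCC or to the stress response element CCCCT, the core bound by Msn2 and Msn4, in capitals on either strand (so GGAAG and AGGGG are also capitals).
TDH1 (chrX:338021-338170, plus strand): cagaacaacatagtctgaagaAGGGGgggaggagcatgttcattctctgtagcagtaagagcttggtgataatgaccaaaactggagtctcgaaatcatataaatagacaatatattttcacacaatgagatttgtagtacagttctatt
TDH2 (chrX:454782-454931, minus strand): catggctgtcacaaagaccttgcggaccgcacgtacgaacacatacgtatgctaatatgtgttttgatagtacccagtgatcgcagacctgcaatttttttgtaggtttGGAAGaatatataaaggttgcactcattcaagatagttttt
TDH3 (chrVII:883911-884060, minus strand): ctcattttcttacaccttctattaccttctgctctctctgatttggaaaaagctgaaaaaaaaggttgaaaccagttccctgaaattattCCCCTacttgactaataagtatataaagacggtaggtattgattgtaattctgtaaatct
ENO1 (chrVII:1000677-1000826, plus strand): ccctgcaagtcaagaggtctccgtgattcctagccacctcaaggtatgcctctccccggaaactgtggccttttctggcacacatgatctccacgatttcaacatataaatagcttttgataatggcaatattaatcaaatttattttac
ENO2 (chrVIII:451077-451226, plus strand): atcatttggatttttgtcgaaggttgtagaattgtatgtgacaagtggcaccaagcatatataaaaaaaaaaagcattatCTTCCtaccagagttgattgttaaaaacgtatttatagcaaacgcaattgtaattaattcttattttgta

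In the window from 250 bases before to 50 after the start codon, CCCCT was present in TDH1, TDH3, PGK1 and CDC19, 4 of 10 members, against 21.7% of 5993 promoters. CTTCC was present in FBA1, TDH2, PGK1 and ENO2, again 4 of 10, against 46.5%. The Skn7 motif GGCNNGGC occurred in TPI1 alone among the members, against 3.52% of promoters, and the letters searched for Yap1 (TTAGTAA or TTACTAA) and Reb1 (TTACCCG), and the Rap1 and heat shock factor motifs, were in no member, all on both strands. In a longer window of 800 bases, added after the first result was seen, CTTCC was in 9 of 10 members against 82.1% of promoters, and CCCCT in 6 of 10 against 48.3%. The other motifs were each in 1 member there. They were Rap1 in CDC19 (1.25% of promoters), Yap1 in TDH1 (17.3%), the heat shock factor motif in PGK1 (2.17%), and Reb1 (12.6%) and Skn7 (11.3%) in TPI1. A match is a description of the letters and not a binding site.

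In unstressed cells the members ranged widely in level. On a scale of CPM per kilobase of coding sequence, averaged over the 8 strain means, TDH3 was highest at 22209.5, followed by ENO2 at 12100.5, FBA1 at 11243, CDC19 at 9672, TDH2 at 4093, PGK1 at 4053, TPI1 at 2739 and PGI1 at 1525. The minor paralogs were lowest, ENO1 at 513 and TDH1 at 226. In ethanol the same measure was 46929 for TDH3, 29660.0 for ENO2, 25034 for TDH2, 25017 for FBA1, 18147 for PGK1, 16268 for CDC19, 15176 for ENO1, 10926 for TDH1, 7395 for TPI1 and 2707 for PGI1. By this measure both minor paralogs stood above TPI1 and PGI1 in ethanol. The ethanol values include the outlying YPS606 library. The strain ranges of neighbours in these orders overlapped in many cases, and the order itself was not tested.

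The 10 members together held between 7.03% and 10.1% of all counts in the unstressed groups of both experiments. In salt the group means lay between 8.18% and 14.1%, and in ethanol between 12.6% in S288c and 28.0% in wild-type YPS606 of the mutant experiment. The single library with the highest share was the outlying YPS606 replicate in ethanol, at 31.6%.

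**Figure D1:**
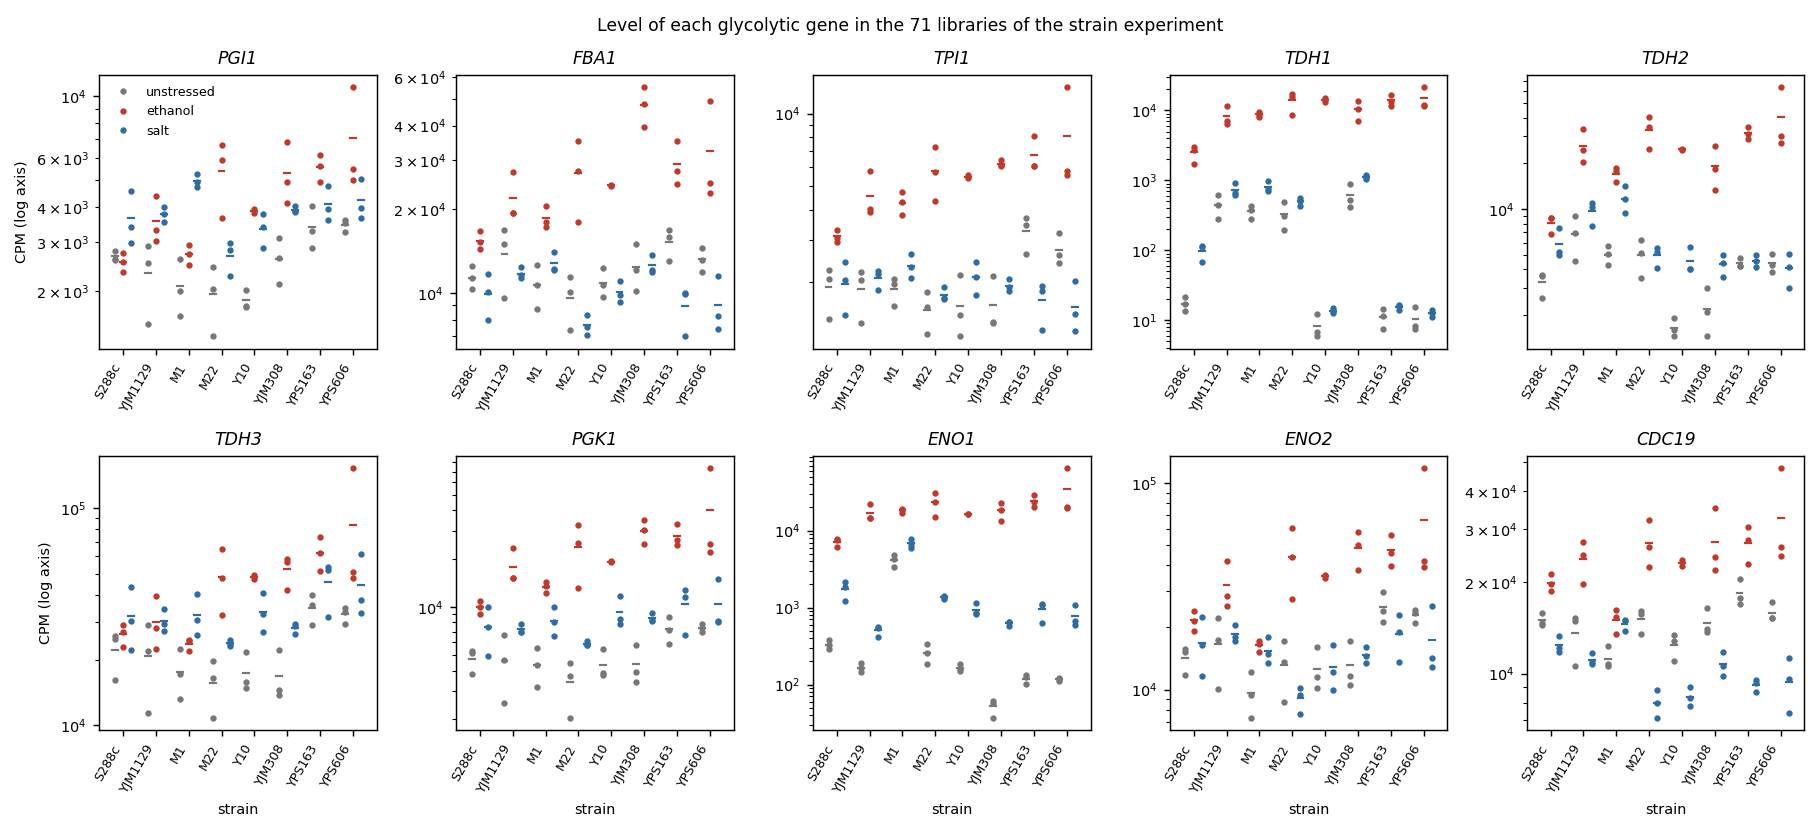
Level of each of the 10 genes in every library of the strain experiment, in CPM on a log scale, by strain along the horizontal axis and by treatment in colour, with a dash at the group mean. TDH1 was between 5.88 and 899 CPM in unstressed libraries and the strain means of TDH1 and ENO1 spread most in unstressed and in salt libraries. In ethanol the highest strain mean is between 2.17 (CDC19) and 6.03 (TDH1) times the lowest. For every gene but FBA1 that highest mean is of YPS606 and includes its outlying library.

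Ethanol raised all 10 members when the response was averaged over the 8 strains. The largest increases were in the minor paralogs, 7.14 log2 units for TDH1 and 6.34 for ENO1, followed by TDH2 at 2.602 and PGK1 at 2.10. The smallest was CDC19 at 0.73. The median over the members was 1.34 against 0.05 over all 6090 genes tested, and 42.4% of all genes were called higher at a false discovery rate of 0.01 in edgeR, with p-values from the quasi-likelihood test adjusted over all genes tested by Benjamini-Hochberg and the replicate number as a block.

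Step by step, PGI1 rose by 0.78 (SE 0.08, adjusted p = 9.94e-14), FBA1 by 1.09 (SE 0.08, adjusted p = 4.9e-19) and TPI1 by 1.44 (SE 0.08, adjusted p = 5.81e-23), all on the log2 scale. Among the TDH genes the increase was 7.14 (SE 0.12, adjusted p = 1.45e-47) for TDH1, 2.602 (SE 0.09, adjusted p = 6.03e-33) for TDH2 and 1.03 (SE 0.11, adjusted p = 5.87e-13) for TDH3, the most abundant of the family. PGK1 rose by 2.10 (SE 0.11, adjusted p = 3.03e-24). The enolase paralogs rose by 6.34 (SE 0.12, adjusted p = 5.99e-45) for ENO1 and 1.25 (SE 0.10, adjusted p = 1.66e-16) for ENO2, and CDC19 by 0.73 (SE 0.06, adjusted p = 2.28e-15). Of the 23 pairs of an ethanol library with the unstressed library of the same culture, 23 were higher for 8 of the members, 22 for TDH3 and 19 for PGI1.

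Taken strain by strain, 70 of the 80 member and strain combinations were higher in ethanol and 0 were lower, where 31.5% of all gene and strain combinations were called higher. The 10 combinations that did not pass were in S288c (PGI1, FBA1, TDH3, ENO2 and CDC19), in M1 (PGI1, TDH3, ENO2 and CDC19) and in YJM1129 (TDH3). In S288c, PGI1 was the only member with a negative estimate, -0.07 (SE 0.21, adjusted p = 0.778), with 2746, 2532 and 2342 CPM in ethanol and 2792, 2589 and 2608 unstressed. Each of the 3 ethanol values was below the unstressed value of the same culture. The 4 members TDH1, TDH2, PGK1 and ENO1 rose in all 8 strains, as did TPI1.

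**Figure D2:**
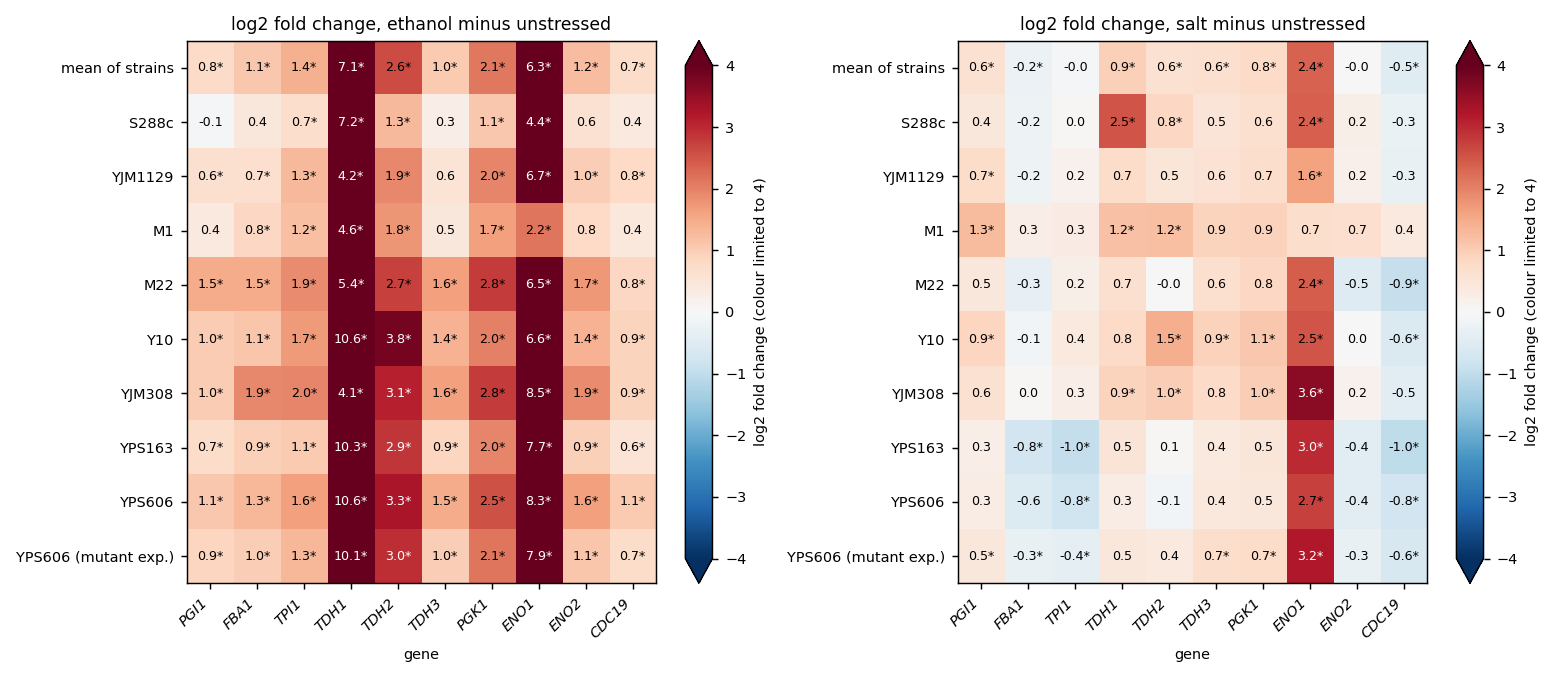
Heat maps of the log2 fold change of each gene against unstressed cells in the edgeR fit, for ethanol and for salt. Each cell holds the estimate, with an asterisk where the change was called. Rows are the strains, the mean of the strains and the wild type of the mutant experiment. The colour scale stops at a set limit, so larger changes are read from the printed values. In ethanol the estimates for TDH1 run from 4.08 in YJM308 to 10.63 in Y10 and those for ENO1 from 2.15 in M1 to 8.46 in YJM308, whereas in salt only ENO1 stands clearly above the other genes in most strains.

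TDH1, a minor dehydrogenase gene on glucose, had the widest range of unstressed levels in its family, and the strains fell into a low set and a high set. Unstressed TDH1 was 6.84, 12.2 and 5.88 CPM in the replicates of Y10, 8.32, 15.6 and 7.50 in YPS606, 14.4, 11.5 and 7.53 in YPS163 and 16.9, 21.3 and 13.6 in S288c. It was 311, 488 and 192 CPM in M22, 372, 435 and 282 in M1, 442, 629 and 279 in YJM1129 and 899, 521 and 420.5 in YJM308. No library of the first 4 strains came above 21.3 CPM and none of the other 4 below 192 CPM, and the highest strain mean was 73.9 times the lowest. Within each set the values of the strains overlapped in part. The lowest count behind any of these values was 67.9 in a Y10 library.

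Each of the 8 strains differed from the mean of the strains in unstressed TDH1. The log2 differences were 3.15 (SE 0.14) in YJM308, 2.68 (SE 0.14) in YJM1129, 2.40 (SE 0.14) in M1 and 2.23 (SE 0.14) in M22, and -1.996 (SE 0.21) in S288c, -2.64 (SE 0.23) in YPS163, -2.75 (SE 0.23) in YPS606 and -3.06 (SE 0.23) in Y10. The adjusted p-values of the 8 were at most 2.04e-11.

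In ethanol the TDH1 levels of the strains came together. The libraries held 2759, 3041 and 1733 CPM in S288c, 11455, 7091 and 6496 in YJM1129, 8173, 9642 and 8509 in M1, 13523, 10597 and 7052 in YJM308 and 13427, 16700.0 and 11693 in YPS163. They held 15793, 17479 and 8672 CPM in M22, 15104 and 13389 in Y10 and 12130.0, 11588 and 21670.0 in YPS606. The highest strain mean, that of YPS606 with its outlying library, was 6.03 times the lowest. S288c was below every other strain, and the other 7 strains overlapped one another in part. The rise was 10.63 (SE 0.39) log2 units in Y10, 10.62 (SE 0.39) in YPS606, 10.31 (SE 0.38) in YPS163 and 7.17 (SE 0.34) in S288c, against 5.41 (SE 0.31) in M22, 4.62 (SE 0.29) in M1, 4.25 (SE 0.29) in YJM1129 and 4.08 (SE 0.29) in YJM308. Compared with the mean response of the strains, 7 of these 8 responses differed, S288c being the exception at 0.03 (SE 0.25, adjusted p = 0.945). These differences use the same unstressed libraries as the levels above and are not separate evidence.

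TDH2 and TDH3 varied less between strains. Unstressed TDH2 was lowest in Y10, with 1914, 1583 and 1444 CPM, and highest in YJM1129, with 6984, 9017 and 4550.4, and the 2 strains did not overlap. Against the mean of strains unstressed TDH2 was 0.86 (SE 0.14) in YJM1129, -0.78 (SE 0.17) in YJM308 and -1.19 (SE 0.17) in Y10. In ethanol Y10 reached 24713 and 24596 CPM and S288c only 8771, 8707 and 6821, and their responses were 3.83 (SE 0.28) and 1.303 (SE 0.24) log2 units. Unstressed TDH3 was called higher than the mean of strains in both oak strains and in no other, 0.72 (SE 0.18, adjusted p = 0.00097) in YPS163 and 0.62 (SE 0.18, adjusted p = 0.0057) in YPS606. These TDH3 calls were lost in 2 (YPS163) and 5 (YPS606) of 10 alternative fits. The ethanol response of TDH3 did not differ from the mean response in any strain at a false discovery rate of 0.01, with estimates from -0.78 in S288c to 0.61 in YJM308.

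ENO1, the minor enolase gene on glucose, was set apart by 1 strain. Unstressed M1 held 4266, 4886 and 3385 CPM, whereas S288c, the next highest strain, held 322, 381 and 290.3 and YJM308, the lowest, held 61.7, 57.0 and 37.2. The M1 values did not overlap those of any other strain, and the strain means spanned 80.4-fold. Relative to the mean of strains M1 was 4.20 (SE 0.14, adjusted p = 1.74e-32) and YJM308 -2.14 (SE 0.22, adjusted p = 9.15e-12). Between these came S288c at 0.55 (SE 0.17), higher than the mean, and the oak strains at -0.93 (SE 0.20) in YPS163 and -0.95 (SE 0.20) in YPS606, lower than it. The S288c call was lost in 5 of 10 alternative fits, the YPS606 call in 2 and the YPS163 call in 0. The estimates of M22, YJM1129 and Y10, 0.18, -0.45 and -0.46, did not pass. The lowest count behind these values was 479.3, in YJM308.

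After ethanol ENO1 was 16904, 18739 and 19252 CPM in M1, 22901, 18351 and 13478 in YJM308 and 7706, 7539.8 and 6052 in S288c. M1 and YJM308, the extremes before stress, overlapped in ethanol, and S288c was below both. The libraries of YPS606 held 20524 and 19641 CPM and, in the outlying library, 64640.0, and the remaining strains had means from 16562 CPM in Y10 to 24164 in YPS163. Responses ran from 2.15 (SE 0.28) log2 units in M1 to 8.46 (SE 0.37) in YJM308. Against the mean response M1 was -4.19 (SE 0.28, adjusted p = 9.45e-17) and S288c -1.92 (SE 0.26, adjusted p = 1.17e-08), while YJM308 at 2.12 (SE 0.26), YPS606 at 1.96 (SE 0.26), or 1.13 without the outlying library, and YPS163 at 1.34 (SE 0.26) were larger.

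ENO2, the main enolase gene, showed an unstressed pattern of its own. M1 was lower than the mean of strains, -0.66 (SE 0.20, adjusted p = 0.00926), with 9363, 12176 and 7314 CPM, and the oak strains were higher, 0.72 (SE 0.17, adjusted p = 0.00055) in YPS163 with 29679, 23961 and 21319 CPM and 0.61 (SE 0.17, adjusted p = 0.00452) in YPS606 with 24316, 23371 and 21122. The lowest oak value lay above all M1 values. Among 10 alternative fits the M1 call was lost in 7, the YPS606 call in 4 and the YPS163 call in 1. The ethanol response of ENO2 did not differ from the mean response in any strain.

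As a share of the family's counts, unstressed TDH1 made up 0.0451% ± 0.0221 in Y10, 0.0280% ± 0.00476 in YPS163, 0.0284% ± 0.0114 in YPS606 and 0.0683% ± 0.00943 in S288c (SD, n = 3 each). The corresponding shares were 1.53% ± 0.281 in M22, 1.59% ± 0.0574 in M1, 1.62% ± 0.109 in YJM1129 and 3.06% ± 0.430 in YJM308. In ethanol the share was lowest in S288c at 6.74% ± 1.18 and highest in M1 at 17.7% ± 0.627. The share of TDH2 went from between 8.73% (Y10) and 25.1% (YJM1129) unstressed to at most 40.7% (YJM1129) in ethanol, where no library was below 21.3%.

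ENO1 made up 30.5% ± 1.64 of enolase counts in unstressed M1 and between 0.400% (YJM308) and 2.28% (S288c) in the other 7 strains. In ethanol its share was 52.8% ± 0.856 in M1, above that of ENO2, and in the other strains it ran from 24.7% in S288c to 34.8% in YJM1129. In salt it stayed at 30.7% ± 0.199 in M1 and lay between 2.64% (YJM1129) and 13.2% (M22) elsewhere.

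**Figure D3:**
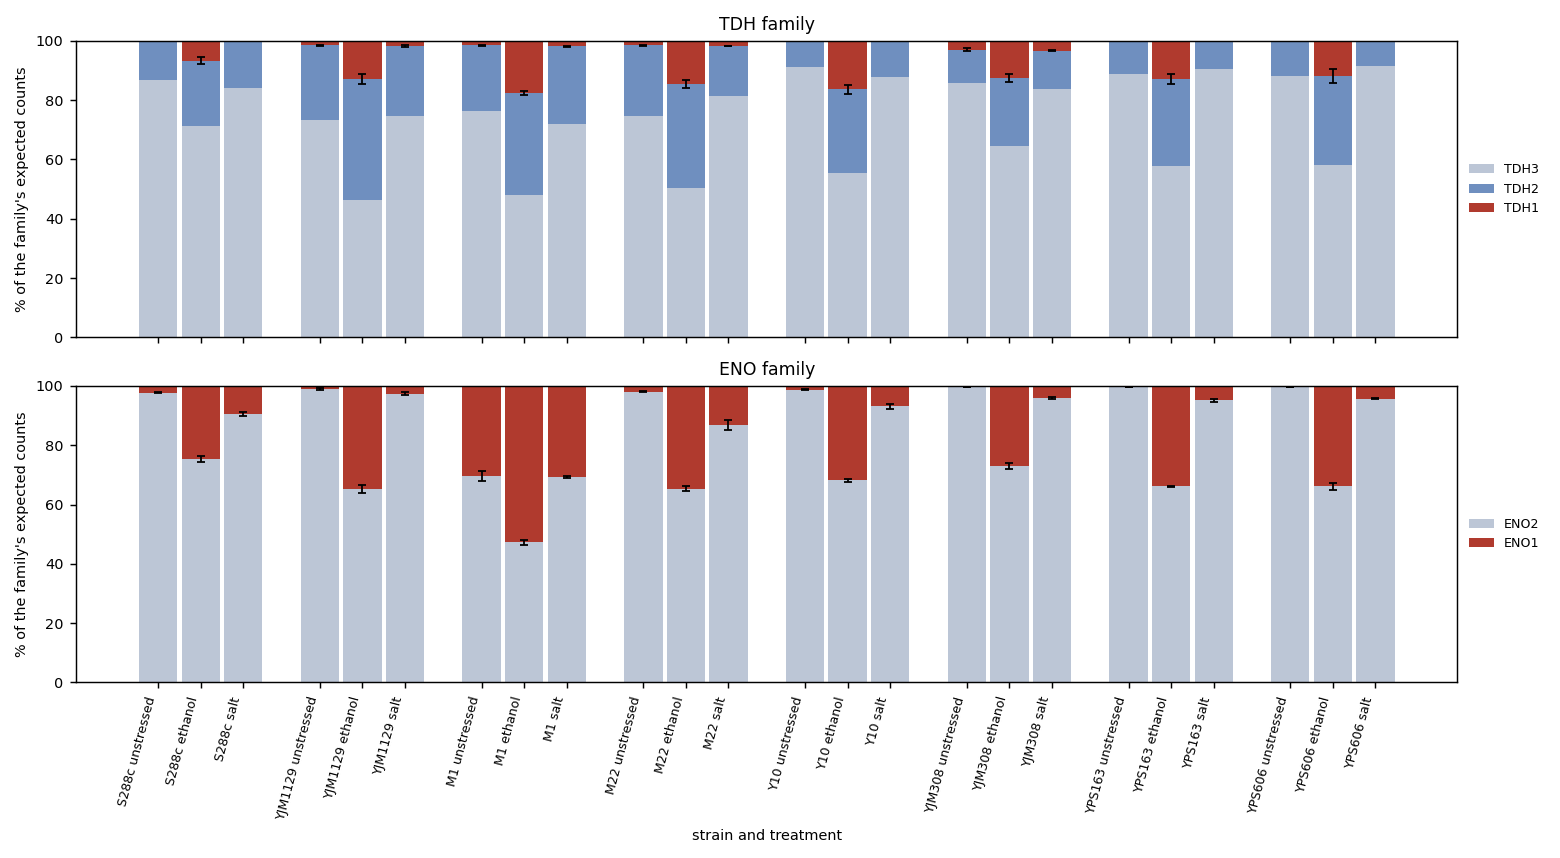
Share of TDH counts and of ENO counts held by each paralog in each strain and treatment, in percent of the family's counts, as the mean of the replicates. Unstressed M1 is the exception among the enolase bars, with ENO1 at 30.5%, and in ethanol ENO1 is between 24.7% and 52.8% in the 8 strains.

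The shift between paralogs was tested on the change of the log2 ratio per strain, with the strain as the unit, by an exact permutation test over all sign flips of the 8 strains. In ethanol the ratio of TDH1 to the sum of TDH2 and TDH3 rose by 5.76 (SD 2.93 over strains), that of TDH2 to TDH3 by 1.59 (SD 0.48) and that of ENO1 to ENO2 by 5.08, each in 8 of 8 strains (exact two-sided p = 0.00781, the smallest this design can give, adjusted p = 0.0117 over the 6 ratios tested). In salt the ratio of ENO1 to ENO2 rose by 2.36 in 8 of 8 strains (exact adjusted p = 0.0117), with the smallest change, 0.01, in M1. For TDH1 in salt the change was 0.32 and higher in 6 of 8 strains (exact adjusted p = 0.131), and this passed 0.05 when replicate 2 was left out (0.40, adjusted p = 0.0117). TDH2 to TDH3 changed by -0.018 in salt (exact adjusted p = 0.906).

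The members without a close paralog behaved more alike. Unstressed FBA1 did not differ from the mean of strains in any strain, with estimates from -0.33 in M22 to 0.34 in YPS163. The oak strains were higher in PGI1 (0.45 in YPS163 and 0.49 in YPS606) and in TPI1 (0.72 and 0.46), YPS606 also in PGK1 (0.61) and YPS163 in CDC19 (0.35). In 11 alternative fits the PGI1 calls were lost in 2 for YPS163 and 3 for YPS606, and the TPI1 calls in 0 and 4. The PGK1 call was lost in 4 of them and the CDC19 call in 5. Over all members, 27 of 80 unstressed combinations differed from the mean of strains, 17 higher and 10 lower, where 23.6% of all combinations were called. TDH1 and ENO1 made up 13 of these 27, and the count was 15 with replicate 1 or replicate 2 left out of every group.

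FBA1 lies on chromosome XI, whose 312 tested genes had a median log2 difference of 0.77 in unstressed YJM308, while FBA1 itself was at 0.04 (SE 0.14). In ethanol FBA1 rose more in YJM308 than on average, by 0.84 (SE 0.20, adjusted p = 0.00101), with 55100.0, 47704 and 39461 CPM against 15023, 12033 and 10144 unstressed. Each of these ethanol values was above every ethanol value of the other strains except that of the outlying YPS606 library. Whether the chromosome-wide difference has a part in this was not tested.

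The ethanol response of S288c was lower than the mean response in 6 of 10 members, where 20% of all genes were called lower in this contrast, namely in PGI1 (-0.85), FBA1 (-0.65), TPI1 (-0.72), TDH2 (-1.30), PGK1 (-1.03) and ENO1 (-1.92). For PGK1 the S288c libraries held 5132, 5324 and 3834 CPM unstressed and 10856, 9938 and 9025 in ethanol, against 3724, 4499 and 2039.6 and 25203, 32467 and 13184 in M22. Across all strains 21 of 80 ethanol responses differed from the mean response, 9 larger and 12 smaller, against 22.8% of all combinations, and the count was 13 with replicate 1 or replicate 2 left out of every group. Of these 21, 12 were in TDH1 or ENO1. Besides those already given, M22 was larger in PGI1 (0.69), Y10 larger in TDH2 (1.22) and M1 smaller in TDH2 (-0.83).

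The outlying YPS606 library in ethanol held 153430.0 CPM of TDH3 where its group mates held 50824 and 47880.0. Without it the ethanol response of YPS606 was 0.55 for TDH3 (adjusted p = 0.0398, no longer a call), 0.76 for ENO2, 1.58 for PGK1, 2.68 for TDH2, 7.38 for ENO1 and 10.10 for TDH1, all but TDH3 still higher. All 10 members were still higher in the mean over strains. Calls by strain then numbered 74 in ethanol and 40 in salt, and those against the mean of strains 30 for the ethanol response and 35 for the unstressed level. The share of all genes called in that fit was not computed, so these larger counts are not read as a result about the members.

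Salt gave a smaller and mixed response. Averaged over strains, 6 members were higher and 2 lower, where 33.7% of all genes were higher and 41.9% lower, and the members' median was 0.62 against -0.06 over all genes. The increases were 2.37 (SE 0.10, adjusted p = 5.53e-28) for ENO1, 0.95 (SE 0.10, adjusted p = 4.84e-13) for TDH1, 0.76 (SE 0.11, adjusted p = 6.73e-09) for PGK1, 0.64 (SE 0.10, adjusted p = 2.38e-07) for TDH3, 0.62 (SE 0.08, adjusted p = 2.99e-09) for TDH2 and 0.61 (SE 0.07, adjusted p = 1.79e-10) for PGI1. CDC19 fell, with an estimate of -0.48 (SE 0.06, adjusted p = 9.74e-10), and was lower in 20 of the 24 pairs from the same culture. FBA1 was at -0.24 (SE 0.07, adjusted p = 0.00385), a call that was lost with DESeq2's size factors (-0.16, adjusted p = 0.062), without the outlying YPS606 library in ethanol (-0.14, adjusted p = 0.025) and with each replicate number left out in turn (-0.11 to -0.23, adjusted p from 0.021 to 0.331). TPI1 at -0.04 (SE 0.08, adjusted p = 0.686) and ENO2 at -0.01 (SE 0.10, adjusted p = 0.974) did not pass.

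By strain, 20 of the 80 salt responses were higher, near the 20.1% of all combinations. Those called lower numbered 7 of 80, a smaller share than the 23.3% of all combinations. With replicate 1 left out of every group 12 were higher and 4 lower. ENO1 rose in 7 of 8 strains. It reached 641, 651 and 580.2 CPM in YJM308 from 61.7, 57.0 and 37.2, a response of 3.60 (SE 0.30), and 7876, 6538 and 5991 in M1 from 4266, 4886 and 3385, a response of 0.71 (SE 0.27, adjusted p = 0.0261) that did not pass. In M1 and in YJM308 the salt values nonetheless all lay above the unstressed ones. CDC19, which makes pyruvate from phosphoenolpyruvate, was lower in M22 (-0.92), Y10 (-0.56), YPS163 (-1.001) and YPS606 (-0.76).

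TPI1 was lower in salt in the oak strains, -0.96 (SE 0.23, adjusted p = 0.000215) in YPS163 and -0.79 (SE 0.23, adjusted p = 0.00192) in YPS606. The YPS163 libraries held 3685, 3455 and 2620.4 CPM unstressed and 1931, 1841 and 1265 in salt, without overlap, and both oak responses were also lower than the mean response (-0.92 and -0.75). FBA1 was lower in YPS163 alone (-0.78 (SE 0.21, adjusted p = 0.00134)). TDH1 rose in S288c (2.504), M1 (1.18) and YJM308 (0.89), and in S288c the level went from 16.9, 21.3 and 13.6 to 116, 111 and 69.0 CPM. Against the mean salt response, 9 of 80 combinations differed, below the 15.4% of all combinations called. Among them were TDH1 in S288c (1.56), ENO1 in M1 (-1.66) and in YJM308 (1.24), TDH2 in Y10 (0.85) and YPS606 (-0.73), and PGI1 (0.65) and CDC19 (0.86) in M1. The count was between 2 and 5 with a replicate number left out, the lowest without replicate 1, and 15 without the outlying YPS606 library. For these fits the share of all combinations called was not computed.

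Ethanol and salt, whose libraries come from the same cultures, differed for 9 of the 10 members, all higher in ethanol, where 41.6% of all genes were higher. The differences were 6.19 (SE 0.11) log2 units for TDH1, 3.98 (SE 0.11) for ENO1, 1.99 (SE 0.09) for TDH2, 1.47 (SE 0.08) for TPI1, 1.34 (SE 0.11) for PGK1, 1.33 (SE 0.08) for FBA1, 1.25 (SE 0.10) for ENO2 and 1.22 (SE 0.07) for CDC19. TDH3 at 0.39 (SE 0.11, adjusted p = 0.000682) was no longer called without the outlying YPS606 library (0.22, adjusted p = 0.0108). PGI1 at 0.17 (SE 0.08, adjusted p = 0.0395) was not called. The doses and times of the stresses differed, so the contrast compares these treatments only.

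In the mutant experiment the wild-type YPS606 cultures repeated the ethanol response in separate libraries. All 10 members were higher, where 35.8% of all 5748 genes tested were, with 10.13 (SE 0.25) log2 units for TDH1, 7.89 (SE 0.22) for ENO1, 2.96 (SE 0.16) for TDH2, 2.13 (SE 0.17) for PGK1 and 1.32 (SE 0.12) for TPI1. The other 5 lay between 0.72 for CDC19 and 1.10 for ENO2. TDH1 went from 16.2, 11.4, 23.0 and 18.7 to 20793, 18289, 19452 and 17781 CPM. In salt 4 members were higher and 3 lower, against 34.5% and 35.2% of genes, with ENO1 at 3.21 (SE 0.18), PGK1 at 0.73 (SE 0.17), TDH3 at 0.71 (SE 0.16) and PGI1 at 0.46 (SE 0.13) and, lower, CDC19 at -0.63 (SE 0.11), TPI1 at -0.37 (SE 0.12) and FBA1 at -0.30 (SE 0.10). With replicate 4 left out the count fell from 7 to 4.

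Without stress no member differed between a mutant and wild type, 0 of 30 combinations by edgeR where 3.58% of all combinations were called. At an unadjusted p under 0.05 there were 3, and DESeq2's Wald test also called 0.

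**Figure D4:**
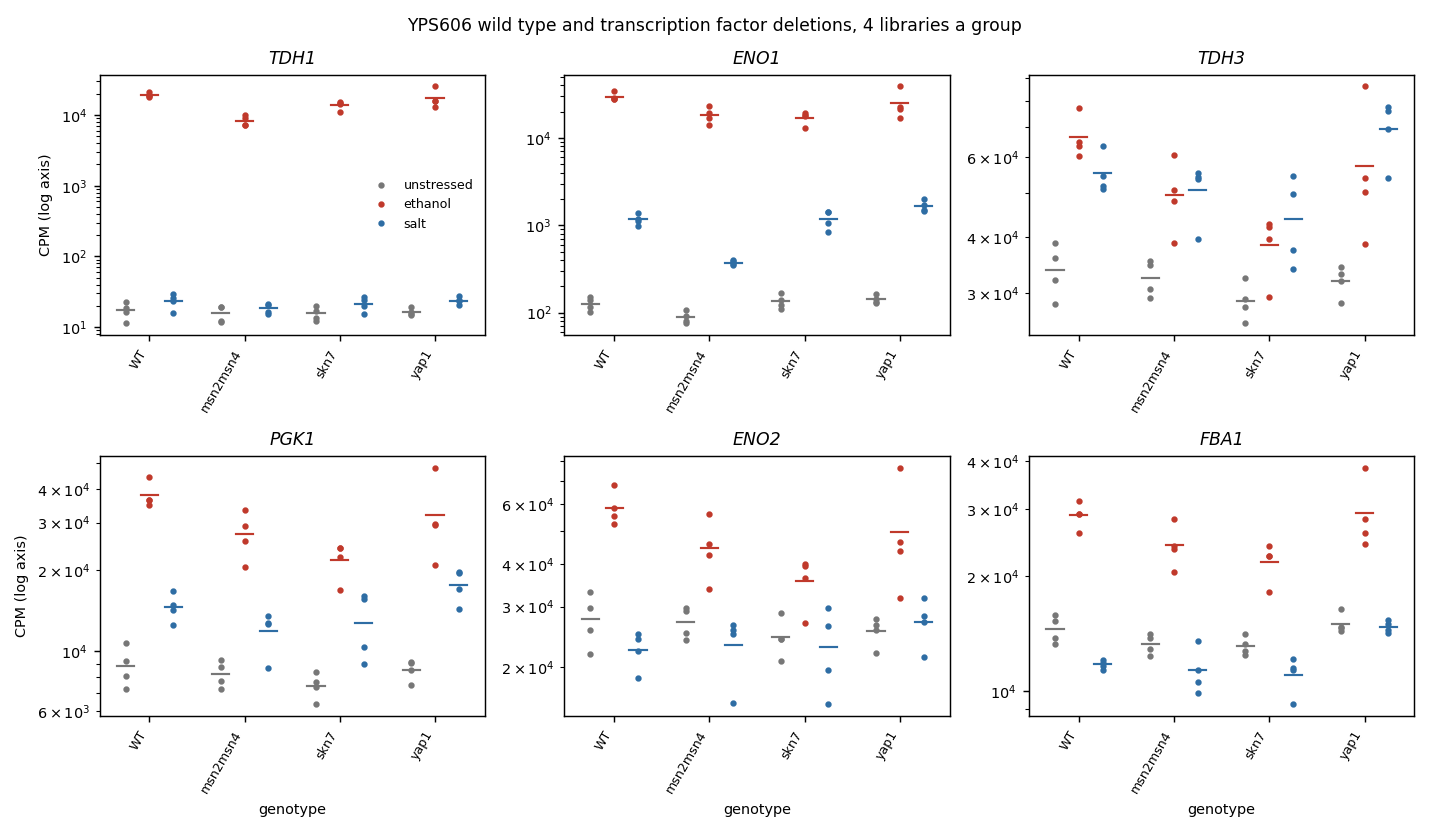
Levels of TDH1, ENO1, TDH3, PGK1, ENO2 and FBA1 in every library of the mutant experiment, in CPM on a log scale, by genotype along the horizontal axis and by treatment in colour, with a dash at the group mean. In ethanol TDH1 lies between 7224 and 9901 CPM in the msn2 msn4 strain and between 17781 and 20793 CPM in wild type, and in salt ENO1 lies between 351 and 397 CPM against 986 to 1381.

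In the strain without Msn2 and Msn4 all 10 members were still higher in ethanol, where 33.9% of all genes were, and the response of 1 of them, TDH1, differed from wild type. TDH1 reached 7224, 7255, 8942 and 9901 CPM, all below the wild-type values of 20793, 18289, 19452 and 17781, and its response was smaller than in wild type by a log2 difference of -1.07 (SE 0.26, adjusted p = 0.00127), while the response itself was still 9.07 (SE 0.24). With replicate 1 or 3 left out the adjusted p was 0.0136 or 0.0123, above the threshold of 0.01. The other 9 differences lay between -0.42 and -0.05 and did not pass. As levels within ethanol, both TDH1 (-1.22 (SE 0.17, adjusted p = 7.75e-08)) and ENO1 (-0.73 (SE 0.17, adjusted p = 0.000333)) were lower than in wild type, where 15.8% of all genes were.

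In salt the same mutant differed in ENO1. Its libraries held 351, 386, 397 and 358 CPM and those of wild type 1126, 986, 1381 and 1164, without overlap. The salt response was smaller by a log2 difference of -1.13 (SE 0.24, adjusted p = 0.000612) but still 2.08 (SE 0.17), and the level within salt differed by -1.64 (SE 0.17, adjusted p = 1.12e-10), where 9.12% of all genes were lower. ENO2, its close paralog, differed in level by 0.03 (SE 0.18, adjusted p = 0.934).

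The skn7 strain differed from wild type in ENO1 in ethanol, with a response smaller by -0.91 (SE 0.24, adjusted p = 0.00902). The libraries held 13107, 18373, 17692 and 19141 CPM against 34380.0, 28657, 27469 and 27727, without overlap, and the unstressed values, 122.9, 110.4, 139 and 170.1 against 115, 102, 151 and 138, overlapped. This call did not hold without the replicate block (-0.89, adjusted p = 0.0242) or with DESeq2's size factors (adjusted p = 0.0119), and its adjusted p ran from 0.00116 to 0.137 with a replicate left out. Across the mutants 2 of 30 ethanol responses and 1 of 30 salt responses differed from wild type, against 8.69% and 12.4% of all combinations, and the yap1 strain had no call in either. In ethanol the count was 0 with replicate 1 or replicate 3 left out, and in salt it was 0 with replicate 3 or replicate 4 left out.

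As levels within ethanol, a comparison added after the interactions had been seen, 9 of 10 members were lower in skn7 than in wild type, where 8.11% of all genes were lower. The largest differences were -0.82 (SE 0.17, adjusted p = 0.000291) for PGK1, -0.81 (SE 0.16, adjusted p = 0.000146) for TDH3, -0.81 (SE 0.17, adjusted p = 0.000264) for ENO1 and -0.74 (SE 0.18, adjusted p = 0.00197) for ENO2, and TDH1, at -0.48 (SE 0.17, adjusted p = 0.0288), was not called. TDH3 was 29348, 41928, 39464 and 42757 CPM against 77029, 64780.0, 60293 and 63664. The groups did not overlap. Replicate 1 was the lowest of the 4 skn7 ethanol libraries for all 10 members and the highest of the 4 wild-type ones for all 10. With replicate 1 left out no member was called (0 of 10), and with replicate 3 left out 3 were. Of the 9 differences, 5 exceeded 1.5-fold.

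The change of each log2 ratio of paralogs with stress was also compared between mutants and wild type, and none of the 18 comparisons passed 0.05 (exact permutation over 70 regroupings, smallest adjusted p = 0.0857, where the smallest unadjusted p the design can give is 0.0286). After adjustment a comparison at that smallest p can pass only if most of the 18 reach it too. The lack of a call therefore does not decide on any single ratio. The ratio of ENO1 to ENO2 in salt changed by 2.32 in the msn2 msn4 strain and 3.50 in wild type, a difference of -1.18 (exact permutation p = 0.0286). For TDH1 against the other dehydrogenase genes in ethanol the difference in that strain was -0.74 (exact permutation p = 0.0286). The ratio of TDH2 to TDH3 in salt changed by 0.17 in the msn2 msn4 strain and 0.11 in skn7, against -0.33 in wild type, differences of 0.505 and 0.44 (exact permutation p = 0.0286 for each). The ratio of ENO1 to ENO2 in ethanol changed by 6.45 in skn7 and 6.49 in yap1, against 6.78 in wild type, differences of -0.335 and -0.29 (exact permutation p = 0.0286 for each). The other 12 comparisons had p-values from 0.0571 to 0.771.

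Most other genes of glycolysis also rose in ethanol. Of 11 such genes, 10 were higher and 1 lower in the mean over strains, where 42.4% of all genes were higher. The glucose kinases HXK1 (8.00 (SE 0.13)) and GLK1 (6.93 (SE 0.12)) and the phosphoglycerate mutase homolog GPM2 (9.26 (SE 0.11)) rose most, and PFK27, a kinase that makes the activator of phosphofructokinase, was lower (-0.92 (SE 0.06)). In salt 6 of the 11 were higher, led by HXK1 (5.94 (SE 0.12)), GLK1 (5.50 (SE 0.11)) and the minor pyruvate kinase PYK2 (2.83 (SE 0.08)), and 3 were lower, namely HXK2 (-0.94 (SE 0.07)), the main hexokinase on glucose, GPM1 (-0.21 (SE 0.07)), the main mutase, and GPM3 (-0.37 (SE 0.04)). Of all genes, 33.7% were higher and 41.9% lower in the mean salt response. In the msn2 msn4 strain the responses of HXK1 and GLK1 differed from wild type by -7.72 (SE 0.37, adjusted p = 1.76e-21) and -1.68 (SE 0.24, adjusted p = 5.56e-07) in ethanol and by -7.10 (SE 0.37, adjusted p = 1.46e-19) and -3.29 (SE 0.25, adjusted p = 2.87e-14) in salt. The largest difference of any member in that strain was -1.13.

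Of 4 genes of the step from pyruvate to ethanol, 3 rose on average over the strains and 1 fell in ethanol, with the minor decarboxylase PDC6 at 5.96 (SE 0.17), PDC5 at 1.87 (SE 0.07), the alcohol dehydrogenase ADH1 at 1.04 (SE 0.09) and the main decarboxylase PDC1 at -0.43 (SE 0.08). In salt 2 rose and PDC1 fell (-0.92 (SE 0.08)). Of all genes, 42.4% were higher in the mean ethanol response, and 33.7% were higher and 41.9% lower in the mean salt response. Both genes particular to gluconeogenesis, FBP1 (1.64 (SE 0.24)) and PCK1 (1.32 (SE 0.20)), were higher in ethanol in the mean over strains, and both were higher in salt. The ethanol responses were largest in YJM1129, 4.69 (SE 0.64) for FBP1 and 4.18 (SE 0.58) for PCK1. Neither gene was called in ethanol in S288c, M1, Y10 or YPS606. By strain, FBP1 was called in salt in YPS163 and YPS606 only and PCK1 in no strain. Among 5 regulators of glycolytic genes, GCR1 (1.92 (SE 0.04)) and TYE7 (4.04 (SE 0.08)) rose in ethanol, GCR2 (-0.92 (SE 0.07)) and RAP1 (-3.29 (SE 0.04)) fell, and REB1 was at -0.05 (SE 0.06, adjusted p = 0.411). In the mean salt response TYE7 (-0.93 (SE 0.08)) and GCR2 (-0.37 (SE 0.07)) fell and the other 3 did not pass. By strain and genotype 1 of the 5 was higher in salt in M1, 1 in wild type and in yap1 of the mutant experiment, and 3 in skn7. Higher in salt were 20.1% of all gene and strain combinations, and 34.5% of all genes in wild type of the mutant experiment. The ERR genes are close homologs of enolase and near copies of one another, so the split of reads among them is uncertain. In the mean ethanol response ERR3 was higher (3.11 (SE 0.48)), and ERR1 and ERR2 had no usable standard error. In the mean salt response ERR1 (2.39 (SE 0.57)) and ERR2 (2.395 (SE 0.69)) were higher, and ERR3 had no usable standard error. The shares of all genes higher in these 2 contrasts were 42.4% and 33.7%. By strain all 3 ERR genes were higher in ethanol in S288c, YJM1129, M1 and YJM308 and 2 of them in M22, where 31.5% of all gene and strain combinations were higher.

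Over the 24 group means of the strain experiment, the genes whose level followed the mean of the 10 members most closely were ADH5 (Pearson r = 0.94), GPP1 (0.939), NHP6B (0.932), ERD2 (0.931) and HRD1 (0.927), among the 2849 genes averaging 50 CPM or more. For TDH1 alone they were COS5 (0.872), LRE1 (0.842), YOL036W (0.842), VPS8 (0.84) and DOA1 (0.84). Between members r ran from 0.338 for TDH1 and TDH3 to 0.936 for FBA1 and TPI1. All 24 points share the treatments and, within a strain, the cultures, so these are descriptions.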

How the data were processed

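RNA-seq of poly(A) RNA was sequenced as single-end reads of 50 bases. The authors trimmed the reads with Trimmomatic, built a reference for each wild strain with Bowtie2 2.3.4.1 and variant callers, mapped with STAR 2.6.1 and deposited RSEM 1.3.1 expected counts per gene; RSEM divides reads shared by paralogs by an estimate. The deposited expected counts were rounded to whole numbers here and no per-sample column was left unused.

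Each experiment was fitted on all its genes with edgeR 4.0.16 (R 4.3.3), TMM scaling, a filter of a mean of at least 1 CPM (6090 and 5748 genes) and the quasi-likelihood test of the older edgeR method, with group and replicate number as terms, since a replicate number marked a shared library-construction batch and lane, and with the unstressed and stressed samples of a number from 1 culture. Samples of the same number and culture deviated together with a mean correlation of 0.076 in the strain and 0.089 in the mutant experiment, against -0.032 and -0.024 for other numbers. Those of the same number but another culture had 0.063 and 0.07, so most of this likeness went with the number. The culture itself was not a term of the model. Calls were made at a false discovery rate of 0.01 over all genes. CPM values use the TMM-scaled library size. Comparisons were each stress against unstressed cells, each strain against the mean of the strains, ethanol against salt, and the mutant response against the wild-type response. Log2 ratios of paralogs were tested by exact permutation. Sample groups came from the labels.

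On simulated data 165 of 200 changed genes were recovered for S288c in ethanol (76% at 2-fold and 89% at 4-fold, 5495 genes, 0 false calls) and 181 of 200 for the skn7 ethanol interaction (86% and 95%, 5428 genes, 1 false call). The simulation gave all genes the same relative spread and all groups the same unstressed means, with no effect of replicate number. It checks the fitting steps and does not give the error rate in the real libraries. Alternatives were other size factors, DESeq2 1.42.0, no filter, no replicate block, the newer edgeR method, other thresholds, summed paralogs and samples left out. The members and lists were chosen with earlier results of these data known. All members are named; from other lists up to 3 called genes with the largest change are named, and PFK27, HXK2, GPM1, GPM3, PDC1, GCR2 and REB1 were added after their values were seen. The 800-base promoter window, the comparison of mutant and wild-type levels within a stress and the fits without the outlying YPS606 library were added after seeing the data. Promoter and coding sequences were read from the R64 genome with Biopython 1.88, and 6006 of the 6685 gene names matched its annotation. Other Python tools were numpy 2.4.6, pandas 2.3.3, scipy 1.17.1 and matplotlib 3.10.9 under Python 3.11.15.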

Additional observations from a re-analysis of the deposited data

Results flagged for a closer look

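In the mutant experiment, groups of 4 libraries were examined for a value far from the other 3, and 5 of 120 gene and group combinations passed a critical value of 0.829, where chance alone would pass about 1 in 20. TDH2 was highest in replicate 1 of wild type in ethanol, at 37931 CPM. The other 4 were lowest values in replicate 1 of the msn2 msn4 strain in salt, for TDH2 (4826 CPM), TDH3 (39522 CPM), PGK1 (8695 CPM) and ENO2 (15690.0 CPM).

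The number of members whose response differed from the mean response of the strains by the test of that difference is given here beside the percentage of all genes called in either direction in the same contrast. In ethanol it was 6 in S288c (42.9% of all genes), 3 in M1 (16%), 3 in YJM308 (17.5%), 2 in M22 (18.5%), 2 in Y10 (21.7%), 2 in YPS163 (20.7%), 2 in YPS606 (16.6%) and 1 in YJM1129 (28.4%). In salt it was 3 in M1 (31.2%), 2 in YPS606 (18.4%), 1 in S288c (4.58%), 1 in Y10 (9.03%), 1 in YJM308 (8.05%) and 1 in YPS163 (21.2%). Against wild type, 1 member differed in the msn2 msn4 strain in ethanol (17.6%), 1 in the same strain in salt (5.97%) and 1 in the skn7 strain in ethanol (4.47%). With 10 members, most of these counts were near the share of all genes.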

How the results depend on the processing

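The mean ethanol response of all 10 members was called in each alternative tried, and no single call of a member changed direction. With the paralogs summed to 7 genes, which lowers the number of combinations, the calls were 5 for the mean salt response, 14 for the salt response by strain, 8 for ethanol and 4 for salt against the mean of strains, 9 for unstressed levels, and 0 for the mutant interactions in ethanol and in salt. Salt responses that differed from the mean of strains numbered 9, but 5 without the replicate block, 18 at a false discovery rate of 0.05 and 15 without the outlying YPS606 library. Without that library salt responses by strain numbered 40, ethanol responses against the mean of strains 30 and unstressed levels 35. Shares of all genes called were computed for the main fits only, so a change in these counts may not be particular to the members. Mutant interactions in ethanol numbered 1 without the replicate block, with DESeq2's size factors, with all genes with a count and with the newer edgeR method, and those in salt 3 at a false discovery rate of 0.05. With a limit of 1.5-fold the wild-type salt response had 4 calls and the skn7 levels in ethanol 5. Without the replicate block 3 paralog ratios in the mutants passed. That version regroups stressed and unstressed libraries separately, so it can give smaller p-values than the main permutation test. Without the Y10 salt library of conflicting title the TDH1 ratio in salt was 0.335 (exact permutation, adjusted p = 0.0375). The cause of these changes was not tested.

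With each replicate number left out in turn, calls by strain ranged from 57 to 67 for ethanol and 16 to 25 for salt. Against the mean of strains they ranged from 13 to 20 in ethanol, 2 to 5 in salt and 15 to 22 for unstressed levels. Ethanol against salt had 8 to 9 and the mean salt response 7 to 7, and the wild-type salt response had 4 to 9. The mutant interactions had 0 to 2 in ethanol and 0 to 1 in salt. Unstressed mutants had 0 to 0 and the skn7 levels 0 to 10. The mutant ratios had 0 to 0. With a replicate left out, their exact permutation has too few regroupings for any ratio to pass. That count was therefore fixed beforehand and does not show stability. The log2 ratios ranged from 5.64 to 5.85 (TDH1, ethanol), 1.52 to 1.69 (TDH2 to TDH3, ethanol), 5.03 to 5.13 (ENO1, ethanol), 0.229 to 0.396 (TDH1, salt), -0.039 to 0.024 (TDH2 to TDH3, salt, 0.024 without replicate 3) and 2.33 to 2.40 (ENO1, salt). DESeq2's size factors moved the median of all genes by at most 0.105. Unstressed TDH1 counts in the low strains limit its precision.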
